A study of Mus musculus with 8 samples.

Results

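Genes of the TGF-beta pathway and of regulatory T cells were measured in the Peyer's patches of 8 C3H/HeJ mice, which are clusters of lymphoid follicles in the wall of the small intestine. The 10 genes were chosen by name, with earlier results of these data known. Among them were the ligands Tgfb1 and Tgfb3, the integrin chain Itgb8, and the receptors Tgfbr1 and Tgfbr2. The others were the signal carrier Smad3, the inhibitor Smad7, and the regulatory T cell genes Foxp3, Il2ra and Ctla4. All 10 are among the 18193 genes that a probe set of the array names alone. Of the 45101 probe sets of the array, 19 name 1 of the 10 genes and no other gene. The OVA mice were gavaged with ovalbumin, a major egg white allergen, at 40 mg/kg each day for 28 days from 6 weeks of age, and the control mice received saline by the same route over the same days. There were 2 female OVA mice (replicates 2 and 12), 4 male OVA mice (replicates 1, 5, 8 and 13), 1 female control (replicate 7) and 1 male control (replicate 8). All mice were C3H/HeJ, an inbred strain with a defective Tlr4, and no pooling of animals is given in the labels. Precision is limited by the number of arrays, above all by the 2 controls, 1 of each sex.

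TGF-beta is secreted bound to a latency peptide and is inactive until it is released, in the gut in large part by the integrin that contains the Itgb8 chain. The free ligand binds Tgfbr2, which activates Tgfbr1, and Tgfbr1 phosphorylates Smad2 and Smad3. These enter the nucleus with Smad4, and one of their targets, Smad7, blocks the receptor in turn. In gut lymphoid tissue TGF-beta drives B cells to switch to IgA and naive T cells to become regulatory T cells, which express Foxp3, the interleukin-2 receptor chain Il2ra and the inhibitory receptor Ctla4 and are required for tolerance to fed proteins.

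The labels name the tissue as Peyer's patches, although the RNA extraction protocol given with them names the parietal cortex of a patient. Markers of B cells (7 of 8) and of epithelium (8 of 8) passed the intensity filter, against 1 of 8 neuron and glia markers, which was Mbp, at 158 to 204 in OVA mice and 173 and 183 in controls. The filter was the median of the mean log2 level, an intensity of 11.9. Trimmed means (2 to 98%) ran from 65.1 to 68.2 over the 8 arrays. Female OVA 12 and male OVA 8 stood apart from the other arrays. Their T cell scores, the mean log2 level of the 10 T cell markers past the filter out of 12 listed, were 6.98 and 7.02, against 6.50 to 6.71 in the other OVA mice and 6.53 and 6.36 in the female and male control. Their B cell scores, over 7 markers, were 8.60 and 8.56, against 7.64 to 7.99 in the other OVA mice and 7.58 and 7.70 in the controls. Their epithelial scores, over 8 markers, were the lowest, at 10.96 and 10.75, against 11.08 to 11.28 in the other OVA mice and 11.27 and 11.28 in the controls. All 10 T cell and all 7 B cell markers had a log2 difference of OVA against control above 0, and all 8 epithelial markers one below 0. In this bulk tissue, fewer cells of a type and less RNA per cell cannot be told apart. The 3′ to 5′ ratio of beta-actin, a measure of RNA integrity, was 1.29 to 1.58 in OVA mice and 1.43 and 1.54 in the female and male control, and male OVA 8 had the highest value. The same ratio of Gapdh was 0.83 to 0.96 in OVA mice and 0.90 and 1.003 in the female and male control. Male OVA 8 (0.96) was there below the male control.

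Of the 10 genes, 7 passed the intensity filter with at least 1 probe set (9 of the 19 probe sets). Itgb8, Foxp3 and Il2ra did not, and they were too dim to compare. The sequences upstream of 5 genes are shown because Tgfb1, Tgfbr1, Tgfbr2 and Ctla4 were highest on the same 2 arrays, on which Smad3 was lowest, as described further on. They are the 250 bases before the annotated start from RefSeq on GRCm38.p6, at chr7:25686752-25687001 on the plus strand for Tgfb1, chr4:47352972-47353221 on the plus strand for Tgfbr1, chr9:116175364-116175613 on the minus strand for Tgfbr2, chr1:60908775-60909024 on the plus strand for Ctla4 and chr9:63757995-63758244 on the minus strand for Smad3. Capitals mark CAGAC or its reverse complement GTCTG, the core letters bound by Smad3 and Smad4.
Tgfb1: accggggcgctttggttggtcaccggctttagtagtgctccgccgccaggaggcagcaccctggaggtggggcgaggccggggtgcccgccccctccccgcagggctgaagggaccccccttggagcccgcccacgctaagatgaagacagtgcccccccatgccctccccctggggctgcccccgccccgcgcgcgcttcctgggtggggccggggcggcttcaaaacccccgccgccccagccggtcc
Tgfbr1: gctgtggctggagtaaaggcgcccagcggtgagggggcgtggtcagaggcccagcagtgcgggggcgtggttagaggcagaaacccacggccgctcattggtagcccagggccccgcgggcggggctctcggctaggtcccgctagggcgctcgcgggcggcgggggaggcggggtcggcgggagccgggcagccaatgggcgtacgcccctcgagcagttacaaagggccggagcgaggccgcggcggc
Tgfbr2: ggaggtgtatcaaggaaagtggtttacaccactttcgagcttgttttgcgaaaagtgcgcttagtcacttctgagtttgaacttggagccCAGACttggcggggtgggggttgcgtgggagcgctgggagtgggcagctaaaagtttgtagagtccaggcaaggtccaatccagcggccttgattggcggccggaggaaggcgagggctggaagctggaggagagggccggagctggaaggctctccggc
Ctla4: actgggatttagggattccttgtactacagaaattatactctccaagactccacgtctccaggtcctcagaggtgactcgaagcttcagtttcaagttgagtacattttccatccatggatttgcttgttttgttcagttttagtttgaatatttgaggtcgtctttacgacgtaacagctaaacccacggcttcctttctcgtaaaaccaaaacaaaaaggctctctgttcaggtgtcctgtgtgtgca
Smad3: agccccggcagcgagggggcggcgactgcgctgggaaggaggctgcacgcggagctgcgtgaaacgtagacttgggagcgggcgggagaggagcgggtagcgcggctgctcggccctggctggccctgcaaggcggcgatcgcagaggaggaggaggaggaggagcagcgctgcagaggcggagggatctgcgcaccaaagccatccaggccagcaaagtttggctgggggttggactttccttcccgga
Of these 5 windows that of Tgfbr2 held CAGAC. RefSeq windows of 8 of the 10 genes were searched, 10 windows in all. No window of Tgfb3 or Smad7 was searched, so the motif counts do not cover these genes. CAGAC or GTCTG was in 4 windows (Tgfbr2, Itgb8, the downstream start of Tgfbr1 and the upstream start of Foxp3). Of all 32851 promoter windows of this length, 42.2% held one or the other. None of the 10 windows held TGTGGT or its reverse complement ACCACA, the letters bound by RUNX factors, which 14.05% of all windows hold. None held CCGGAA or TTCCGG, the core of ETS factor sites, which 12.0% of all windows hold. Since CAGAC alone was found, no match overlapped one of another motif. The GC content of the 5 printed windows was 75.2% for Tgfb1, 74.8% for Tgfbr1, 58.4% for Tgfbr2, 42.4% for Ctla4 and 69.2% for Smad3, beside a median of 52.4% over all windows.

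The comparison of OVA with control mice asked which of these genes differed in the patch after repeated oral exposure to an allergen. None of the 7 genes tested passed limma with Benjamini-Hochberg adjustment (adjusted p = 0.503 to 0.947), where 0% of the 22518 probe sets tested were called. At an unadjusted p under 0.05, none of the 7 was past the line, against 6.88% of probe sets on the higher and 4.33% on the lower side. The log2 difference of OVA against control was above 0 for 4 of the 7 genes (Tgfb1, Tgfbr1, Tgfbr2 and Ctla4), beside 54.5% of all probe sets tested, and below 0 for 3 (Tgfb3, Smad3 and Smad7). For none of the 10 genes did the OVA and control arrays separate, whereas 8.36% of probe sets had every OVA array above the controls and 5.01% had every OVA array below them.

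**Figure D1:**
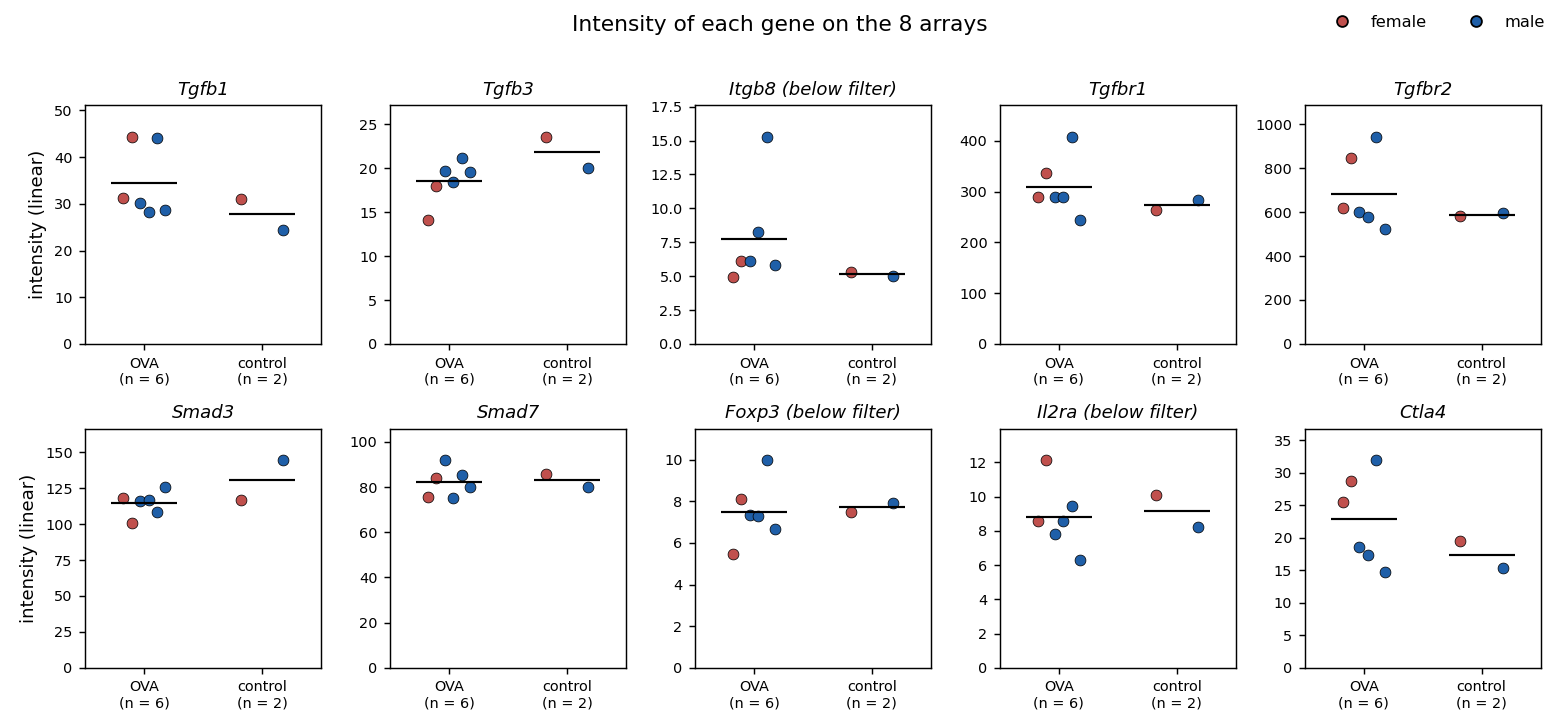
Intensity (linear scale, axes from 0) of the probe set that represents each of the 10 genes, with 6 OVA arrays left of 2 controls in each panel, points coloured by sex and bars at the group means. In Tgfb1, Tgfbr1, Tgfbr2 and Ctla4 the highest points are female OVA 12 and male OVA 8, the other OVA arrays lie among or near the controls apart from Ctla4 in female OVA 2, and Itgb8, Foxp3 and Il2ra, dim on most arrays, did not pass the filter on their mean level.

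Tgfb1, the main TGF-beta ligand of lymphocytes, had intensities from 28.3 to 44.4 with a median of 30.7 in OVA mice, against 31.1 in the female and 24.4 in the male control. Female OVA 12 (44.4) and male OVA 8 (44.1) were well above the rest, and the other 4 OVA mice lay between 28.3 and 31.1. The mean was 34.5 ± 7.65 (SD, n = 6) in OVA mice and 27.8 ± 4.73 (SD, n = 2) in controls, a log2 difference of 0.29 ± 0.18 (SE) with a 95% interval of -0.12 to 0.70 (limma adjusted p = 0.542). A second probe set of Tgfb1 past the filter was at 19.0 to 20.1 in OVA mice, against 13.6 in the female and 19.99 in the male control, and all 4 male OVA arrays held the same value. Such exact ties between arrays occurred in 51.5% of all probe sets. The log2 difference of that probe set was 0.17 ± 0.11 (SE; adjusted p = 0.562).

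Tgfb3, a ligand made mainly by mesenchymal cells, had intensities from 14.1 to 21.2 with a median of 19.0 in OVA mice, against 23.6 in the female and 19.99 in the male control. All OVA mice but male OVA 8 (21.2) lay below both controls, female OVA 2 furthest at 14.1, so that Tgfb3 came nearest to a separation on the lower side. Its mean was 18.5 ± 2.44 (SD, n = 6) in OVA mice and 21.8 ± 2.55 (SD, n = 2) in controls, a log2 difference of -0.21 ± 0.13 (SE), interval -0.51 to 0.08 (adjusted p = 0.531). The value rested on the female control: without it the log2 difference was -0.02, and without the male control it was -0.45, neither of them called.

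Itgb8, the integrin chain that releases the ligand, was below the filter, at 4.96 to 15.3 with a median of 6.15 in OVA mice, against 5.33 in the female and 4.99 in the male control. Male OVA 8 (15.3) was the 1 array above the filter level, next came male OVA 5 at 8.23, and the other OVA mice were between 4.96 and 6.15.

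The receptors were the brightest probe sets of the set, a statement about probes and not about relative transcript numbers. Tgfbr1, the signalling type I receptor, was at 244.8 to 408 with a median of 289.6 in OVA mice, against 264 in the female and 283 in the male control. Male OVA 8 (408) and female OVA 12 (336) were highest and the next 3 OVA mice had nearly equal values of 289 to 289.9, all 5 above both controls, while male OVA 13 (244.8) was below both. The log2 difference was 0.16 ± 0.18 (SE), interval -0.25 to 0.56 (adjusted p = 0.733). Tgfbr2, the ligand-binding type II receptor, showed the same order of arrays at the top, with 522 to 943 and a median of 608 in OVA mice, against 582 in the female and 594 in the male control. Male OVA 8 was at 943 and female OVA 12 at 846, while the other 4 OVA mice spanned 522 to 618 around the controls. Its log2 difference was 0.20 ± 0.22 (SE), interval -0.31 to 0.71 (adjusted p = 0.728). Without female OVA 12 and male OVA 8 the difference of Tgfbr2 was -0.01 and that of Tgfbr1 0.02. The controls mattered as well: Tgfbr2 was at 0.11 without the female and 0.31 without the male control, and Tgfbr1 at 0.09 and 0.24. A second, dimmer probe set of Tgfbr2 did not share this order: it was at 13.5 to 17.6 in OVA mice, against 17.6 in the female and 15.0 in the male control, with a log2 difference of -0.08 ± 0.09 (SE; adjusted p = 0.751).

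Smad3, the transcription factor activated by the receptors, was at 100.6 to 125.9 with a median of 116.4 in OVA mice, against 116.5 in the female and 144 in the male control. The arrays with the highest receptor values had the lowest Smad3, 100.6 in female OVA 12 and 108.6 in male OVA 8, and no OVA mouse reached the male control. The log2 difference was -0.20 ± 0.11 (SE), interval -0.45 to 0.05 (adjusted p = 0.503). It was -0.30 without the female and -0.09 without the male control, neither of them called. Smad7, the inhibitor that the pathway induces against its own receptor, was nearly level, at 75.3 to 91.8 with a median of 82.1 in OVA mice, against 86.0 in the female and 80.2 in the male control. Its groups overlapped fully, and the log2 difference was -0.02 ± 0.11 (SE), interval -0.27 to 0.23 (adjusted p = 0.947).

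Ctla4, which restrains T cells by removing costimulatory ligands from antigen presenting cells, had the largest log2 difference of the 7, 0.34 ± 0.21 (SE), interval -0.14 to 0.83 (adjusted p = 0.543). It was at 14.8 to 31.9 with a median of 22.1 in OVA mice, against 19.5 in the female and 15.3 in the male control. Male OVA 8 (31.9), female OVA 12 (28.8) and female OVA 2 (25.5) lay above both controls, and the other 3 male OVA mice (14.8 to 18.6) lay below the female control. Foxp3, the transcription factor that defines regulatory T cells, stayed below the filter on every array, at 5.45 to 9.97 with a median of 7.32 in OVA mice and 7.49 and 7.93 in the female and male control. Il2ra was at 6.27 to 12.1 with a median of 8.59 in OVA mice and 10.1 and 8.19 in the controls, so that 1 array, female OVA 12, was past the filter level. At these intensities a difference in Foxp3 or Il2ra was not detectable, and their absence from the tested set does not show that they were unchanged.

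The sexes were compared in the same fit. Ctla4 was at 27.2 ± 2.29 (SD, n = 2) in female OVA mice, 20.7 ± 7.67 (SD, n = 4) in male OVA mice, 19.5 in the female control and 15.3 in the male control. The female value was higher under either treatment, and each gap between neighbours in this order was smaller than the SD of the male OVA mice. The log2 difference of female against male was 0.34 ± 0.19 (SE) for Ctla4, 0.21 ± 0.16 (SE) for Tgfb1 and -0.15 ± 0.10 (SE) for Smad3, and it was between -0.12 and 0.12 for the other 4 genes. None of the 7 genes passed for female against male (adjusted p = 0.901 to 0.998), where 0.0533% of probe sets were called and 5.41% had an unadjusted p under 0.05. Nor did any pass for the OVA effect in males minus that in females (adjusted p = 0.646 to 0.976), where 0% of probe sets were called and 8.2% had an unadjusted p under 0.05. That difference was largest for Tgfb3, at 0.44 ± 0.22 (SE), whose values were 19.7 ± 1.13 (SD, n = 4) in male OVA mice and 19.99 in the male control, and 16.0 ± 2.77 (SD, n = 2) in female OVA mice and 23.6 in the female control.

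Tgfb1, Tgfbr1, Tgfbr2 and Ctla4 were high on the same 2 arrays, those with the highest lymphocyte scores. Genes outside the set, such as Cd3d, Ms4a1 and Lyz2, also had their highest values there. How many of all genes did so was not counted, so the pattern is not shown to be particular to these genes. As a log2 deviation from the gene's mean over all 8, the level in male OVA 8 and female OVA 12 was 0.40 and 0.41 for Tgfb1, 0.45 and 0.18 for Tgfbr1, 0.54 and 0.38 for Tgfbr2, and 0.52 and 0.39 for Ctla4. Smad3 was at -0.11 and -0.22 there, Tgfb3 at 0.11 and -0.07 and Smad7 at 0.05 and 0.03. The T cell scores of these arrays were 0.37 and 0.33, the B cell scores 0.59 and 0.63, and the epithelial scores -0.37 and -0.16.

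**Figure D2:**
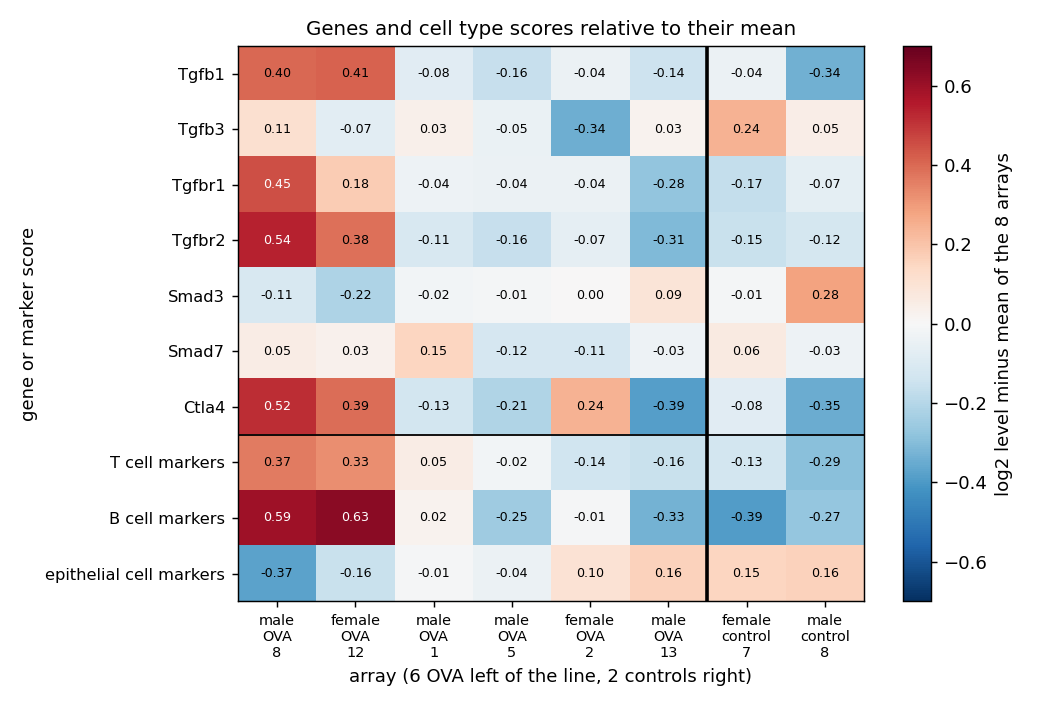
Log2 level minus the mean of the 8 arrays for the 7 genes past the filter and 3 marker scores (rows), with the 6 OVA arrays left of the 2 controls, each ordered by T cell score. Male OVA 8 and female OVA 12 are the 2 arrays in which Tgfb1, Tgfbr1, Tgfbr2 and Ctla4 are all high together with the T and B cell scores, while Smad3 and the epithelial score are low.

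Over the 8 arrays, 49 relations were computed, 28 of a gene with a marker score and 21 between genes, with exact permutation p adjusted over all of them. Pearson's r passed in 21, and both r and Spearman's rho passed in 3. Relations with the scores were not computed for other genes, so the share of all genes that would pass is not known. The counts thus do not set these genes apart from others. Smad3 against the T cell score was one of the 3. Its r was -0.87, with an exact permutation p of 0.00367 that became 0.0205 over the 49, and its rho was -0.95, with an exact p of 0.00114 (0.028 over the 49). Without female OVA 12 and male OVA 8 its r was -0.83, and within the 6 OVA arrays it was -0.90. Tgfbr1 gave the other 2. With the epithelial score its r was -0.94, with an exact permutation p of 0.000397 (0.0113 over the 49), and its rho -0.95, with an exact p of 0.00114 (0.028). With the B cell score its r was 0.89, with an exact permutation p of 0.00231 (0.0186), and its rho 0.93, with an exact p of 0.00223 (0.0365). Without the same 2 arrays r was -0.64 with the epithelial and 0.68 with the B cell score.

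Tgfb1 and the T cell score gave r of 0.93, with an exact permutation p of 0.00377 (0.0205 over the 49), but rho was 0.69, with an exact p of 0.0694 (0.17), and r was 0.59 once female OVA 12 and male OVA 8 were left out. Tgfbr1 gave r of 0.85, with an exact permutation p of 0.00776 (0.0293), and rho of 0.88, with an exact p of 0.00724 (0.0591), and r of 0.31 without those arrays. Tgfbr2 gave r of 0.88, with an exact permutation p of 0.0135 (0.0415), and rho of 0.64, with an exact p of 0.0962 (0.205), and r of 0.09 without them. Ctla4 gave r of 0.80, with an exact permutation p of 0.0197 (0.0477), and rho of 0.76, with an exact p of 0.0368 (0.12), and r of 0.23 without them. Without female OVA 12 and male OVA 8, r with the T cell score was thus 0.31 or lower for Tgfbr1, Tgfbr2 and Ctla4. These 2 arrays lay farthest from the median score, so leaving them out also narrowed its range. Whether the relations rest on them alone cannot be told from this. With the B cell score Tgfbr2 and Ctla4 lost less. Tgfbr2 gave r of 0.95, with an exact permutation p of 0.00265 (0.0186), and rho of 0.83, with an exact p of 0.0154 (0.0942), and r of 0.63 without the 2 arrays. Ctla4 gave r of 0.88 with the B cell score, with an exact permutation p of 0.00533 (0.0238), and rho of 0.69, with an exact p of 0.0694 (0.17), and r of 0.59 without them. Tgfb1 lost more there than with the T cell score. Its r was 0.91, with an exact permutation p of 0.0112 (0.0388), its rho 0.64, with an exact p of 0.0962 (0.205), and its r 0.30 without them. With the epithelial score r, but not rho, also passed for Tgfb1 (-0.83), Tgfbr2 (-0.90) and Ctla4 (-0.77). Without the 2 arrays these r were -0.20, -0.28 and -0.15.

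Tgfbr1 and Tgfbr2, the partners of the receptor complex, had r of 0.96, with an exact permutation p of 0.000694 (0.0113 over the 49), and rho of 0.81, with an exact p of 0.0218 (0.105). Leaving out male OVA 8 and male OVA 13, farthest from the median, left r at 0.91. Tgfb1 and Smad3 ran opposite, with r of -0.88 at an exact permutation p of 0.00471 (0.0231), rho of -0.79 at an exact p of 0.0279 (0.105), and r of -0.90 without female OVA 12 and male OVA 8. Smad3 and Ctla4 had r of -0.77 at an exact permutation p of 0.015 (0.0432), rho of -0.79 at an exact p of 0.0279 (0.105), and r of -0.81 without the male control and female OVA 12. Relations of Tgfb1 with the receptors lost most of their r without female OVA 12 and male OVA 8, the 2 arrays farthest from its median level. With Tgfbr1 its r was 0.80, at an exact permutation p of 0.0199 (0.0477), its rho 0.57, at an exact p of 0.151 (0.279), and its r -0.06 without them. With Tgfbr2 its r was 0.91, at an exact permutation p of 0.0119 (0.0388), its rho 0.76, at an exact p of 0.0368 (0.12), and its r 0.13 without them. Ctla4 kept more of its r. With Tgfb1 its r was 0.90, at an exact permutation p of 0.000967 (0.0118), and 0.70 without female OVA 12 and male OVA 8. With Tgfbr2 its r was 0.90, at an exact permutation p of 0.000546 (0.0113), and 0.70 without the same arrays. With Tgfbr1 its r was 0.84, at an exact permutation p of 0.00258 (0.0186), and 0.66 without male OVA 8 and male OVA 13. Their rho (0.90, 0.88 and 0.74) did not pass after adjustment. No relation with the stromal score passed. Tgfb3, the ligand of mesenchymal cells, had r of 0.44 with that score, at an exact permutation p of 0.277 (0.485), and rho of 0.19, at an exact p of 0.665 (0.921), and its r was -0.58 without female OVA 2 and male OVA 5.

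**Figure D3:**
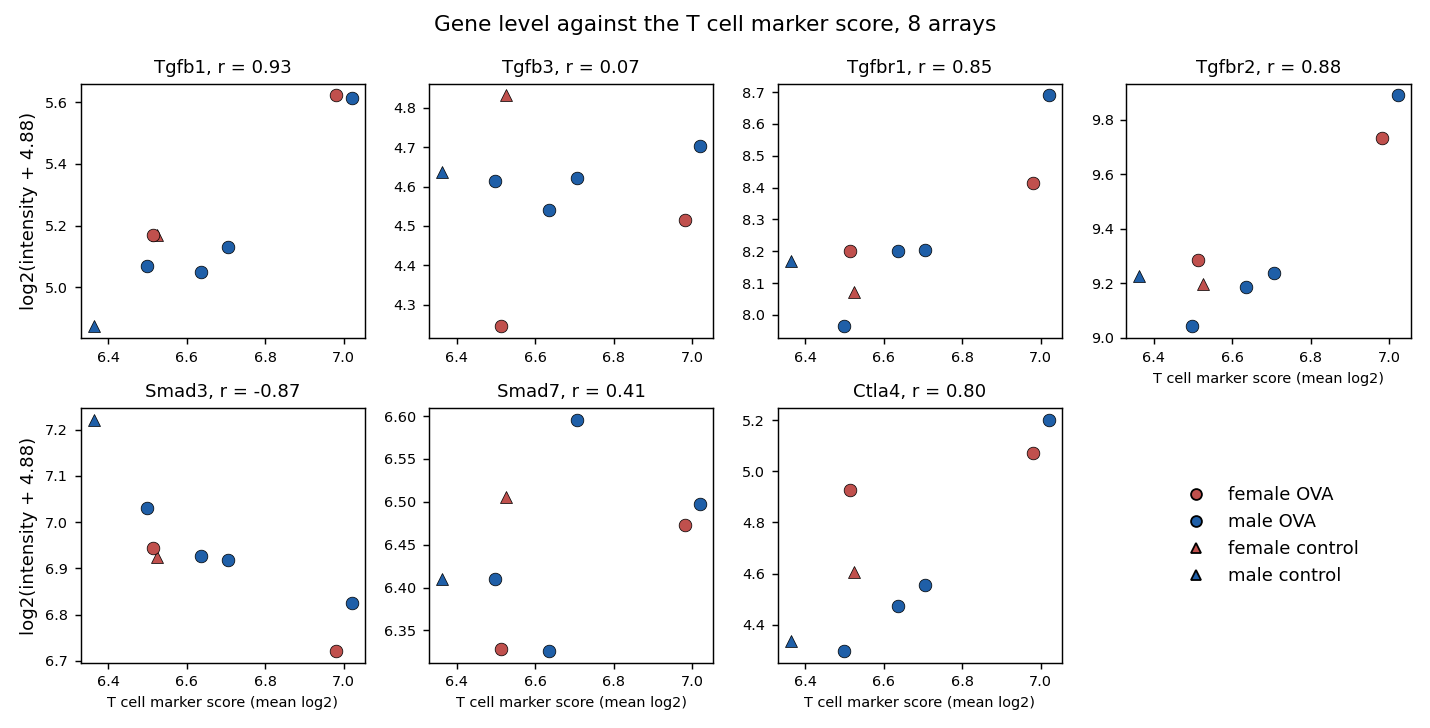
Log2 level of each of the 7 genes past the filter (y axis, log2 of intensity plus 4.88) against the T cell marker score (x axis, mean log2 level of 10 markers) on the 8 arrays, with circles for OVA and triangles for control mice. Smad3 is lower at higher scores also among the 6 arrays left of the gap (r = -0.83), whereas r is 0.09 for Tgfbr2 and 0.23 for Ctla4 without the 2 arrays at the right, female OVA 12 and male OVA 8.

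To describe the levels per T cell transcript, the T cell score of each array was subtracted from the log2 level of each gene. The subtraction lowers the difference in means of every gene by the same amount, since the score averaged 6.73 in OVA mice and 6.44 in controls. The OVA minus control difference was then -0.03 for Tgfb1, -0.12 for Tgfbr1, -0.10 for Tgfbr2 and 0.00 for Ctla4 on the log2 scale. These values depend on the markers subtracted: with Cd3e alone they were 0.20 for Tgfb1, 0.10 for Tgfbr1, 0.13 for Tgfbr2 and 0.23 for Ctla4. With the T cell score as a further term in the limma fit, 1 of the 7 differences was above 0, that of Ctla4 at 0.02, and those of Tgfb1, Tgfbr1 and Tgfbr2 were -0.02, -0.11 and -0.18. After subtraction of the score the difference was -0.48 for Tgfb3, -0.46 for Smad3 and -0.30 for Smad7. All 6 OVA arrays lay below both controls for 2 of the 7 genes, Tgfb3 and Smad7, which 15.6% of all probe sets also did after the same subtraction, while 0.83% lay above. The exact permutation p was 0.0357 for Tgfb3, the smallest that 28 splits of the arrays allow, 0.0714 for Smad7 and 0.143 for Smad3, and none passed after adjustment over the 7 genes (adjusted p = 0.25 for Tgfb3 and Smad7). With Cd3e alone, Tgfb3 was the 1 gene that separated, at -0.25, and the differences of Smad3 and Smad7 were -0.24 and -0.08. The share of all probe sets that separate was not computed with Cd3e alone.

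**Figure D4:**
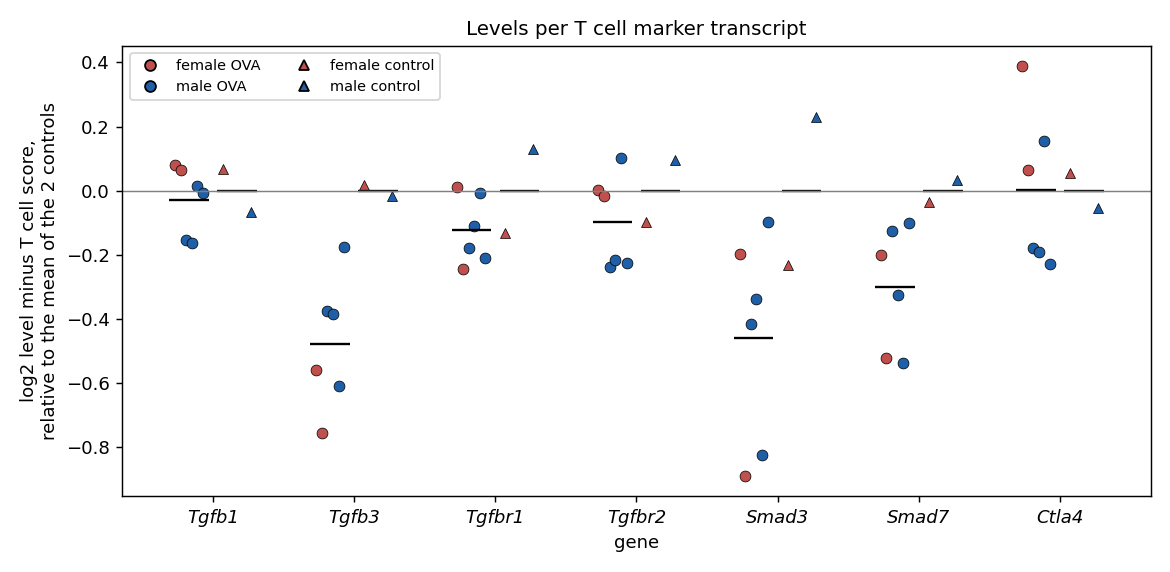
Log2 level minus the T cell score, relative to the mean of the 2 controls (y axis), for the 7 genes past the filter, with OVA mice (circles) left of control mice (triangles) and bars at the group means. All OVA points of Tgfb3 and Smad7 lie below both controls, and the OVA and control points of Tgfb1, Tgfbr1, Tgfbr2, Smad3 and Ctla4 overlap.

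Other genes of the pathway were described from lists, and none of their members passed the limma test over all probe sets. Among ligands and the proteins that store and release them, 12 of 16 genes passed the filter, 5 with a log2 difference above 0 and 7 below, with a median of -0.01 beside 0.02 over all genes tested. No gene of that list had an unadjusted p under 0.05. The genes with the smallest p outside the 10 were Ltbp4, a latent TGF-beta binding protein, at -0.16 ± 0.12 (SE), Nrros, which tethers latent TGF-beta on macrophages, at 0.16 ± 0.22 (SE), and Itgb6, the epithelial integrin chain that also releases TGF-beta, at -0.20 ± 0.29 (SE). Nrros had its highest values in male OVA 8 (78.9) and female OVA 12 (74.9), against 48.5 in the female and 57.0 in the male control, and Itgb6 its lowest in male OVA 8 (5.85), against 14.1 and 20.1. All 6 receptor genes passed the filter, 3 on each side of 0. They included the coreceptor Tgfbr3 at -0.19 ± 0.11 (SE), the decoy receptor Bambi at 0.16 ± 0.15 (SE) and the endothelial coreceptor Eng at -0.07 ± 0.10 (SE).

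All 16 genes for SMADs and their regulators passed the filter, and 14 had a log2 difference below 0 (median -0.06), where 53.7% of all genes were above 0. In 3 of them all 6 OVA arrays lay below both controls, beside 4.65% of all genes, and 2 had an unadjusted p under 0.05, beside 3.82% of all genes on that side. Smad6, the inhibitory SMAD of the BMP branch, was at 53.2 ± 8.36 (SD, n = 6) in OVA mice and 75.7 ± 6.32 (SD, n = 2) in controls, a log2 difference of -0.49 ± 0.16 (SE; adjusted p = 0.402). Its OVA values ran from 41.6 to 64.9, against 80.2 in the female and 71.25 in the male control. Nedd4l, a ubiquitin ligase that degrades activated SMADs, was at 146 ± 21.0 (SD, n = 6) in OVA mice and 189 ± 1.72 (SD, n = 2) in controls (log2 difference -0.39 ± 0.14, SE; adjusted p = 0.413). The phosphatase Ppm1a, which removes the activating phosphates of Smad2 and Smad3, was at 619 to 768.5 in OVA mice, against 769.9 in the female and 916.5 in the male control, so that the gap between the groups was small. Male OVA 8 had the lowest value of all 3 and also the lowest epithelial score (10.75), whose part in them was not tested.

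Of 21 genes that TGF-beta is known to regulate, 20 passed the filter, 6 with a log2 difference above 0 and 14 below (median -0.08). All 6 OVA arrays lay below both controls for 4 of them, beside 4.65% of all genes, and above for 1, beside 7.99%. Fn1, the matrix protein fibronectin, was at 178 ± 17.4 (SD, n = 6) in OVA mice and 236 ± 5.04 (SD, n = 2) in controls (log2 difference -0.40 ± 0.12, SE; adjusted p = 0.39). Id1, an inhibitor of differentiation that BMP signals also induce, was at 244 ± 58.2 (SD, n = 6) in OVA mice and 354.5 ± 22.4 (SD, n = 2) in controls (-0.61 ± 0.20, SE; adjusted p = 0.409). Tgfbi, a matrix protein named for its induction by TGF-beta, was at 762 ± 87.2 (SD, n = 6) in OVA mice and 999.5 ± 78.3 (SD, n = 2) in controls (-0.39 ± 0.14, SE; adjusted p = 0.412). For each of the 3, no OVA array reached either control, and male OVA 8 had the lowest value (148 for Fn1, 184 for Id1 and 643 for Tgfbi). At an unadjusted p under 0.05 stood 5 genes of the list on the lower side, beside 3.82% of all genes, and 1 on the higher side, beside 6.39%. All 6 smooth muscle markers had a log2 difference below 0 (median -0.22), as had 6 of the 8 stromal markers. The smooth muscle marker Tagln and the stromal marker Col1a1 are also in the list. The part of smooth muscle and stroma in these values was not tested.

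Regulatory T cell genes past the filter numbered 20 of 28, with 15 above 0, 5 below and a median of 0.11. Over all genes tested, 53.7% were above 0 and the median was 0.02. Of these, 4 had an unadjusted p under 0.05, all on the higher side, beside 6.39% of all genes. The smallest p outside the 10 belonged to Tnfrsf4, the costimulatory receptor OX40, at 46.9 to 64.1 in OVA mice, against 45.2 in the female and 37.0 in the male control (log2 difference 0.34 ± 0.12, SE; adjusted p = 0.412). No OVA array of Tnfrsf4 was as low as a control, and female OVA 12 was highest. Izumo1r, the folate receptor family member found on regulatory and other antigen-experienced T cells, was at 68.75 ± 9.67 (SD, n = 6) in OVA mice and 49.0 ± 7.63 (SD, n = 2) in controls (0.44 ± 0.16, SE; adjusted p = 0.413), and the costimulator Icos was at 96.0 to 184 in OVA mice, against 107 and 80.3 in the controls. Helper T cells also express these genes. The T cell score was 6.73 ± 0.23 (SD, n = 6) in OVA mice and 6.44 ± 0.11 (SD, n = 2) in controls, and its part in these values was not tested. In the list of oral tolerance and antigen presenting cells, 14 of 22 genes passed, 6 above 0 and 8 below, with a median of -0.05. Cd86, the ligand that Ctla4 removes, was at 53.9 to 113 in OVA mice, against 49.3 in the female and 37.5 in the male control, a log2 difference of 0.79 ± 0.24 (SE; adjusted p = 0.389). No OVA array of Cd86 was as low as a control, and female OVA 12 (113) and male OVA 8 (96.1) were highest. In this list 2 of the 14 genes had every OVA array above both controls, beside 7.99% of all genes. Aldh1a2, which makes retinoic acid in dendritic cells, was at 18.3 to 39.9 in OVA mice, against 34.1 and 34.9 in the female and male control. The log2 difference was -0.41 ± 0.17 (SE) for Aldh1a2 (adjusted p = 0.431) and -0.56 ± 0.29 (SE; adjusted p = 0.493) for Ido1, the tryptophan-degrading enzyme of tolerance.

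The genes whose pattern was most like each of the 7, by Pearson's r of log2 levels over the 8 arrays among 11988 genes, are given as a description. For Tgfb1 they were Plek, a phosphoprotein of blood cells (r = 0.99), and Stil, a centriole duplication factor (r = 0.99). For Ctla4 they were Rrm1 (r = 0.99) and Mcm3 (r = 0.98), both genes of DNA replication, and without female OVA 12 and male OVA 8 these were 0.97 and 0.94. Tgfbr2 was closest to Ube2d2a, a ubiquitin conjugating enzyme (r = 0.99), and to Cybb, the oxidase chain of phagocytes (r = 0.99), and Tgfbr1 to Dennd4b (r = 0.99) and Trmt2a (r = 0.99). Cybb was at 403 to 741 in OVA mice, against 462 in the female and 465 in the male control, and male OVA 8 and female OVA 12 were again highest. Smad3 was closest to Ctdspl, a phosphatase (r = 0.97), and to Clip4 (r = 0.97). Tgfb3 was closest to Kctd12b (r = 0.97) and to Nf2, the tumour suppressor merlin (r = 0.95), and Smad7 to Vps18 (r = 0.93) and Bicc1 (r = 0.92).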

How the data were processed

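Total RNA of Peyer's patches was hybridised to single-colour, biotin-labelled Affymetrix arrays, 1 per mouse. The deposited numbers are linear intensities of probe sets, which the authors summarised and scaled. The submitters' processing notes name MAS5, without a version or settings. Exact ties between arrays in 51.5% of probe sets leave the summary step unsettled. Treatment and sex came from the labels, and separate mice are the replicates.

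The scale of the tests was log2(intensity + 4.88), with the 25th percentile of the intensities as pseudocount. After removal of 64 AFFX controls, 22518 probe sets had a mean log2 level above the median (an intensity of 11.9) and were tested two-sided in limma 3.58.1 (R 4.3.3; lmFit, eBayes), with Benjamini-Hochberg adjustment over all of them at 0.05. An additive fit of treatment and sex (5 residual degrees of freedom) gave the main contrasts. The difference of the OVA effect between the sexes came from 4 group means (4 residual degrees of freedom), on the assumption that a single control varies as much as other mice. Of the probe sets, 34958 carried 1 gene symbol, 932 several and 9211 none. The brightest probe set past the filter stood for a gene, or the brightest of all where none passed. Marker scores are mean log2 levels of the listed genes past the filter. Named were the 10 genes, the 3 others of smallest p in each list, the 2 of highest r with each gene past the filter, and the most intense gene of each marker list. The scripts were tested on simulated data. Exact permutations, two-sided, ran over 28 splits or 40320 pairings of the arrays (Python 3.11.15, NumPy 2.4.6, pandas 2.3.3, SciPy 1.17.1, matplotlib 3.10.9). The genes and lists were chosen with earlier results of these data known. Alternatives changed the pseudocount, scaling, filter, variance model, array weights, covariates, probe set averaging, the score subtracted and the arrays included.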

Additional observations from a re-analysis of the deposited data

Results flagged for a closer look

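Among 20 groups examined, the 10 genes in all OVA mice and in male OVA mice, 2 held an array far from the others. The rule was Dixon's gap over range on linear intensities, which flags about 1 in 20 independent, normally spread groups by chance. These groups were not independent, since the male OVA mice are in both and the genes share arrays, so that rate is nominal. Tgfb1 was at 44.1 in male OVA 8, above the other 3 male OVA mice, which lay between 28.3 and 30.2. Itgb8, below the filter, was at 15.3 in male OVA 8, above the other 5 OVA mice, which lay between 4.96 and 8.23. Male OVA 8 also had the highest T cell score (7.02) and beta-actin 3′ to 5′ ratio (1.58) of the 8 arrays. Its Gapdh ratio (0.96) was below that of the male control (1.003). The part of the score and the ratios in these values was not tested.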

How the results depend on the processing

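No probe set was called for OVA against control (0) or for the difference of the OVA effect between sexes (0) with limma under any alternative run, although 2524 probe sets had an unadjusted p under 0.05 for OVA against control. Of the 355 values of single genes under the alternatives, 334 kept their direction and none was called (smallest adjusted p = 0.22). For OVA against control, the T cell score as a further term gave -0.021 for Tgfb1, -0.11 for Tgfbr1 and -0.18 for Tgfbr2, so that 1 of 7 genes was above 0 in place of 4. Leaving out female OVA 12 and male OVA 8 together, chosen after seeing the data, gave -0.0081 for Tgfbr2 and 3 of 7 genes above 0. Leaving out each array in turn gave 4 to 5 of 7, and -0.10 to 0.047 for Smad7. For female against male, 12 probe sets were called, 4 with the filter at the 75th percentile, which tests fewer probe sets, and 9 to 14 without each array. There Smad7 was at 0.0033 with quantile normalization and 0.0022 with median centring, and Tgfbr1 at -0.017 with no treatment term. Without each array in turn the ranges were -0.24 to 0.011 for Tgfb3, -0.078 to 0.10 for Tgfbr1, -0.046 to 0.24 for Tgfbr2 and -0.057 to 0.046 for Smad7. For the OVA effect in males minus that in females they were -0.11 to 0.34 for Tgfb1, -0.43 to 0.024 for Tgfbr2 and -0.29 to 0.015 for Ctla4. Controls could not be left out there, since each sex has 1. Of 7 genes minus the T cell score, 2 separated, Tgfb3 and Smad7, and the same genes did so without each OVA array in turn. With Cd3e alone, 1 separated. Without a control, 1 array is left in that group and separates more easily, so that count is not given. The share of all probe sets that separate was computed for the main setting only. The causes were not tested. No paired analysis was possible because the OVA and control groups share fewer than 2 replicate numbers, and the number 8 of a male control and a male OVA mouse names no shared source. The number of arrays and the dim signal of Foxp3, Il2ra and Itgb8 limit what could be detected.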
